A study of Homo sapiens with 22 samples.

Results

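The comparison described here is the difference between HCT116 and LS180 cells in how far transcripts had changed after 4 h of actinomycin D. It used 12 total RNA libraries of the 22 in the series, chosen by their labels: 3 of HCT116 at 4 h, 3 of HCT116 at 0 h, 3 of LS180 at 4 h and 3 of LS180 at 0 h. HCT116 and LS180 are human colorectal cancer cell lines, each represented by that line alone, and the series concerns the RNA-binding protein Staufen1 and FOXA1, a transcription factor whose mRNA it studies. Actinomycin D, given at 5 µg/ml, binds DNA and blocks transcription. The 6 libraries taken at 2 h, 3 per line, were part of the same fit and share the 0 h libraries. Whether libraries of a group stem from separate cultures is not in the labels. The p-values therefore measure only how much these libraries vary, which may be technical.

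When transcription stops, an mRNA disappears at the rate at which it is degraded. Degradation usually begins with shortening of the poly(A) tail, followed by removal of the cap and digestion from either end, and AU-rich elements in the 3′ untranslated region (3′ UTR) recruit factors that hasten it. Replication-dependent histone mRNAs have no poly(A) tail and end instead in a stem-loop, through which they are degraded when DNA synthesis stops. A transcription block does not measure decay alone, because it also changes the cells, and the levels here are relative to the transcripts that remain.

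Levels are CPM, counts scaled to a common library size, after TMM normalization. A line difference is the log2 fold change of 4 h against 0 h in HCT116 minus that in LS180, so a positive one means that the transcript was left at a higher share of its 0 h level in HCT116. A gene is called when the adjusted p of edgeR's quasi-likelihood test is under 0.05. Libraries held 47842278 to 61417810 counts, and 17256 of the 57820 genes in the tables were tested. The epithelial genes KRT8, KRT18 and EPCAM were abundant in both lines, with KRT8 at 2000 CPM in HCT116 and 1500 CPM in LS180 at 4 h, against 1680 and 1230 CPM at 0 h. VIL1, an intestinal brush border gene, averaged 0.0661 CPM in HCT116 and 248 CPM in LS180 at 4 h. Markers of other cell types were low. None of 6 fibroblast, 3 immune and 3 endothelial marker genes tested was called by edgeR or DESeq2 (1 fibroblast gene had an unadjusted p under 0.05), and among them LYZ alone passed 10 CPM, in LS180.

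The LS180 4 h library numbered 1 stood apart. Within its group it deviated from the mean by 0.199 (SD of log2 deviation over 10250 genes), against 0.12 and 0.129 for the other two. Short noncoding RNAs took 17.2% of its counts and 22.5% and 25.7% of theirs. The HCT116 libraries numbered 1 deviated from their groups by 0.144 to 0.149, against 0.096 to 0.114 for the other HCT116 libraries.

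More genes were left at a higher share in HCT116 than in LS180. Of the 17256 genes, 2129 (12.3%) had a higher relative level at 4 h in HCT116 and 230 (1.33%) a lower one. With a difference of at least 2-fold there were 449 (2.6%) higher and 118 (0.684%) lower. Among the 2129 genes, the median level left at 4 h was 71.3% of the 0 h level in HCT116 and 43.9% in LS180. Among the 230 it was 57.7% in HCT116 and 116% in LS180. In bulk RNA, fewer cells that hold a transcript and less of it per cell cannot be told apart.

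The excess of higher over lower calls changed with the scaling and with the libraries kept. Without the LS180 4 h library 1 there were 1919 higher and 2536 lower, and with it left out but the scaling factors kept there were 2862 higher and 677 lower. Without the HCT116 libraries numbered 1 they were 2158 and 325. Leaving out HCT116 4 h library 1, 2 or 3 alone gave 1143, 1051 or 1079 higher and 972, 673 or 830 lower. The lower count was 145 or 136 without LS180 4 h library 2 or 3 and 148 without LS180 0 h library 1. Other scalings or tests gave 1521 higher and 451 lower with RLE size factors, 1719 and 662 with DESeq2, and 1253 and 1757 when genes needed 1 CPM or more throughout a group. At 2-fold or more, genes called higher outnumbered those called lower under each of the 26 alternatives. By ratio this was narrowest without HCT116 4 h library 1, with 221 against 181.

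The median line difference over all genes was 0.06. It lay at 0.21 when libraries were scaled to ribosomal protein genes and at −0.12 with the 1 CPM filter, so the sign of a difference under about 0.2 on the log2 scale is not settled by these data. Without LS180 4 h library 1, or without any 1 of the HCT116 4 h libraries, line differences shifted by a median of −0.16 from the main fit. With LS180 4 h library 1 left out but the scaling factors kept, the median shift was 0.00. A range in square brackets gives the lowest and highest median of a list over the 26 alternatives.

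The changes of both lines ran in parallel across genes. Within each line, 4524 genes (26.2%) rose and 4085 (23.7%) fell at 4 h in HCT116, and 4591 (26.6%) rose and 5365 (31.1%) fell in LS180, all relative to the transcripts that remained. For 9457 genes, the larger of the 4 h and 0 h means was at least 5 CPM in each line, which is called the level rule below. Across those genes the HCT116 change and the LS180 change, which share no library, correlated with Pearson's r = 0.93 and Spearman's rho = 0.92, a description across genes that are not independent replicates. The LS180 change was 1.24 times the HCT116 change along the major axis of the scatter, and the SD of the change was 0.77 in HCT116 and 0.94 in LS180. The log2 level fell by more than 2 for 305 of these genes in HCT116 and for 645 in LS180. Under the level rule, 1833 genes (19.4%) were called higher and 134 (1.42%) lower.

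**Figure D1:**
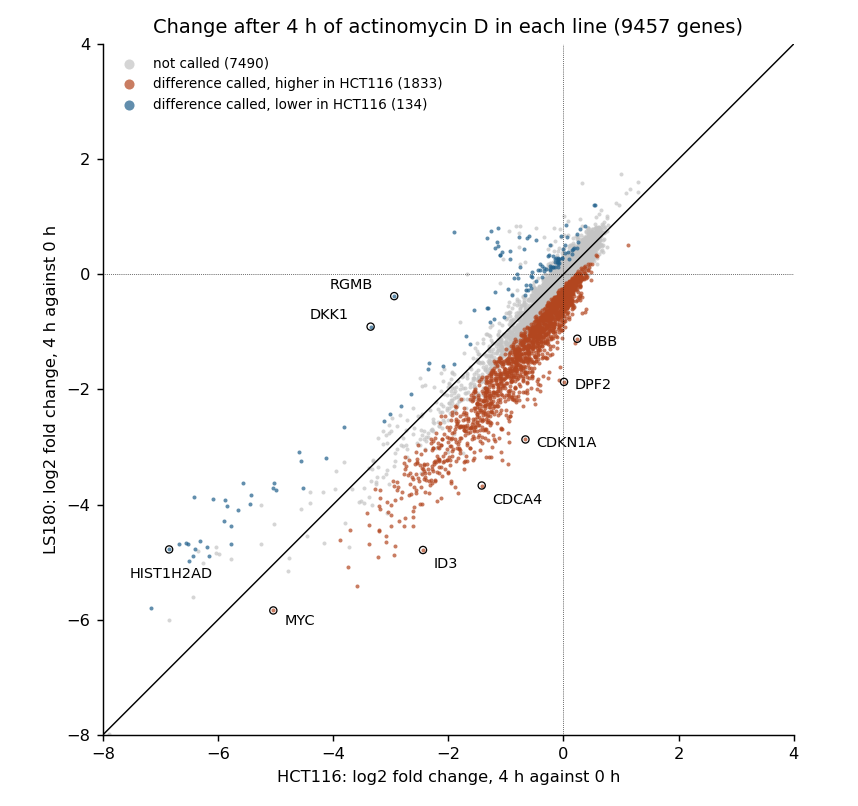
Each point is 1 of the 9457 genes of the level rule, with its log2 fold change of 4 h against 0 h in HCT116 on the x axis and in LS180 on the y axis; the solid line marks equal change. Most called genes (1833, orange) lie below the line, where LS180 fell further, and the 134 genes called lower in HCT116 (blue) include RGMB, DKK1 and a group of histone genes at the lower left.

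Sequences in the 3′ UTRs of the genes with the largest differences are shown first. For each gene 1 annotated transcript was searched, and whether a match bears on a difference was not tested. AU-rich heptamers, written TATTTAT and holding the pentamer ATTTA, were searched on the transcript strand of 3′ UTRs from GENCODE 29 (GRCh38). At least 1 was present in 31.9% of the 3′ UTRs of the 13534 tested protein-coding genes that have one. Among the 12 largest positive differences CDCA4, NRARP, PPM1D and SPSB1 held one, and ID3, ZNF440, CDKN1A, FRAT2, TUT1, CLP1, DPF2 and CLDN4 did not. Of the pair of non-histone genes among the 12 largest negative differences, RGMB held one and DKK1 did not. The first heptamer of each, in capitals, with 9 bases on either side, reads:
CDCA4, chr14:105010450-105010474, minus strand: ggaggatttTATTTATgtctattta
NRARP, chr9:137301014-137301038, minus strand: gttctaaacTATTTATcttgtgtgt
PPM1D, chr17:60664782-60664806, plus strand: agtgtatttTATTTATttattattt
SPSB1, chr1:9368170-9368194, plus strand: cgtaccctgTATTTATtcttttaac
RGMB, chr5:98794033-98794057, plus strand: tatattaaaTATTTATgtgtgtgct
The histone stem-loop sequence, in capitals below, does not overlap the heptamer and was found on the transcript strand in 16 of the 13534 3′ UTRs (0.118%), and 15 of those belong to histone genes. Histone genes make up 10 of the 12 largest negative differences, of which 4 have an annotated 3′ UTR that could be searched, and those 4 hold it, while the other 6 could not be searched:
HIST2H3C, chr1:149840687-149840712, minus strand: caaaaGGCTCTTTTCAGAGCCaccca
HIST1H4J, chr6:27824454-27824479, plus strand: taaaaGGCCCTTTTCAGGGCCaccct
HIST1H2AI, chr6:27808642-27808667, plus strand: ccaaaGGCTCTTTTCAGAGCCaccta
HIST2H2BF, chr1:149811880-149811905, minus strand: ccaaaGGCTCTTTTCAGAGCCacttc
A match describes these letters in an annotated transcript, and the genome used by the authors was hg19.

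The 12 largest positive differences are described first. ID3, an inhibitor of basic helix-loop-helix transcription factors, had 9.09, 3.62 and 3.22 CPM at 4 h against 47.9, 19.5 and 19.8 CPM at 0 h in HCT116. In LS180 it had 8.35, 5.87 and 5.94 CPM at 4 h against 179, 201 and 180 CPM at 0 h. The first HCT116 library was the high one at both times, and the share left at 4 h was 18.3% ± 11.3 in HCT116 and 3.60% ± 0.756 in LS180 (SD, n = 3 each) without overlap. The line difference was 2.35 ± 0.568 (SE, edgeR adjusted p = 0.00768), and the call was lost without HCT116 4 h library 1 and with LS180 4 h library 1 as the lone library of its group.

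CDKN1A encodes p21, the cyclin-dependent kinase inhibitor induced by p53. It had 169, 116 and 116 CPM at 4 h against 248, 185 and 198 CPM at 0 h in HCT116, and 24.9, 20 and 20.4 CPM at 4 h against 157, 161 and 161 CPM at 0 h in LS180. In both lines 4 h lay below 0 h, and 63.4% ± 14.6 was left in HCT116 against 13.6% ± 1.69 in LS180. The line difference was 2.22 ± 0.192 (edgeR adjusted p = 4.75e-07). PPM1D, the phosphatase WIP1 that dampens the p53 response, showed a like difference of 1.93 ± 0.129 (edgeR adjusted p = 3.24e-08). It had 31.3, 24.3 and 26.0 CPM at 4 h against 69.4, 63.4 and 61.2 CPM at 0 h in HCT116, and 3.49, 2.84 and 3.33 CPM at 4 h against 27.8, 29.1 and 30.7 CPM at 0 h in LS180.

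CDCA4, a nuclear protein linked to the cell cycle, had 24.7, 22.6 and 24.1 CPM at 4 h against 62.4, 62.4 and 66.9 CPM at 0 h in HCT116. In LS180 it had 3.60, 2.98 and 2.37 CPM at 4 h against 34.7, 40.2 and 39.8 CPM at 0 h. The lines did not overlap in the share left, 37.2% ± 1.67 in HCT116 and 7.81% ± 1.61 in LS180. The line difference was 2.25 ± 0.131 (edgeR adjusted p = 7.82e-09). ZNF440, a zinc finger protein, was left at 51.5% ± 3.91 in HCT116 and 10.1% ± 1.26 in LS180.

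DPF2, a subunit of the BAF chromatin remodelling complex, fell in LS180 and was not called in HCT116. It had 44.9, 47.2 and 47.1 CPM at 4 h against 43.4, 46.2 and 48.8 CPM at 0 h in HCT116, which overlap. In LS180 it had 7.24, 5.95 and 5.44 CPM at 4 h against 23.6, 23.6 and 21.3 CPM at 0 h. The difference between the lines was 1.88 ± 0.111 (edgeR adjusted p = 7.82e-09).

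The other 6 genes had this direction too. FRAT2, which binds the kinase GSK3 in Wnt signalling, was left at 47.7% ± 10.8 in HCT116 and 10.6% ± 2.69 in LS180. NRARP, a feedback regulator of Notch, was left at 47.2% ± 2.7 in HCT116 and 11.7% ± 3.37 in LS180. TUT1, which adds uridines to U6 snRNA, and CLP1, a kinase of mRNA 3′ end formation, are RNA processing factors. They were left at 51.8% ± 9.14 and 27.9% ± 5.02 in HCT116, and at 13.1% ± 6.89 and 7.11% ± 2.21 in LS180. SPSB1, an adaptor of a ubiquitin ligase, was left at 12.7% ± 4.48 in HCT116 and 3.38% ± 0.906 in LS180. CLDN4, a claudin of tight junctions, was left at 40.7% ± 6.18 in HCT116 and 11% ± 1.35 in LS180. In 12 of 12 of the largest positive differences the lines did not overlap in the share left. These genes were picked as called and largest in the same libraries, so the lack of overlap is no separate support. Over all genes tested, 4318 (25%) were higher in HCT116 without overlap and 1540 (8.92%) lower.

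**Figure D2:**
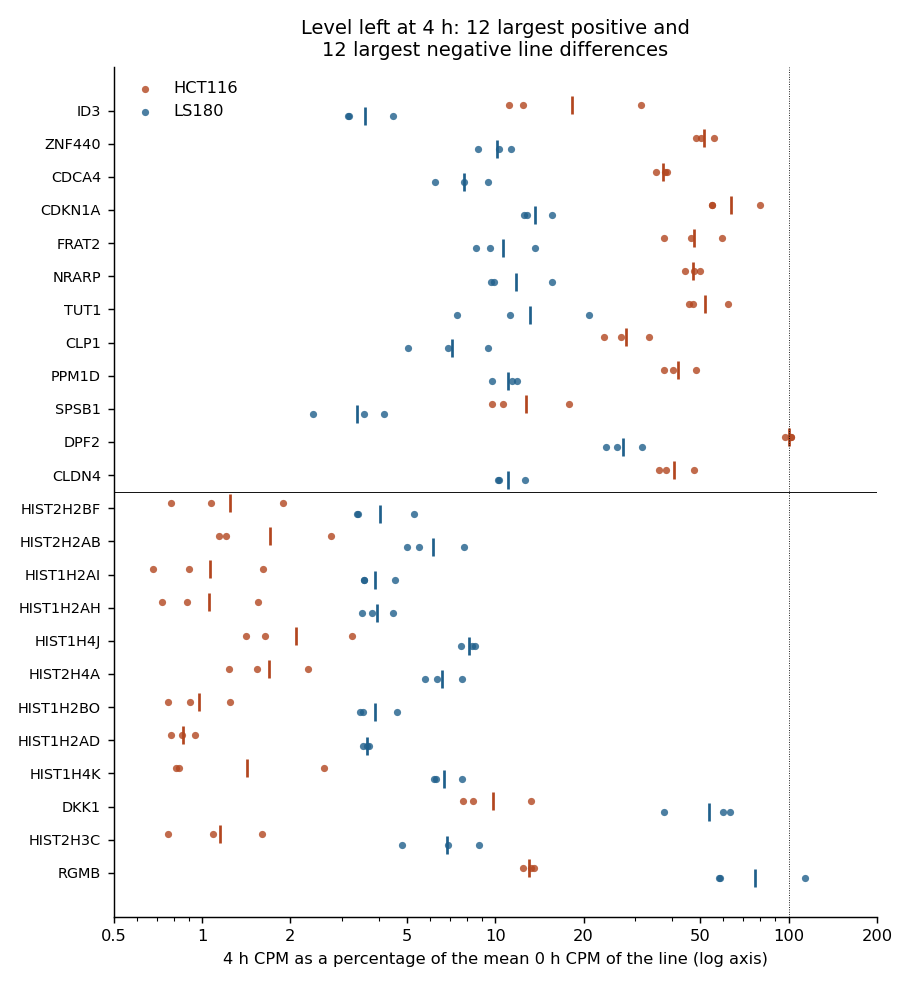
Points give the CPM of each 4 h library as a percentage of the line's mean 0 h CPM on a log axis, with HCT116 in orange above LS180 in blue, and vertical ticks give the mean of 3 libraries. The 12 genes above the line have more left in HCT116, and the 12 below it have more left in LS180, where histone genes were left at 0.861 to 2.09% in HCT116 and at 3.64 to 8.15% in LS180.

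The largest negative differences held RGMB, DKK1 and 10 histone genes. RGMB is a co-receptor for bone morphogenetic proteins. It had 2.56, 2.51 and 2.35 CPM at 4 h against 17.8, 19.5 and 19.6 CPM at 0 h in HCT116, and 79.2, 40.3 and 40.7 CPM at 4 h against 79.7, 63.9 and 64.7 CPM at 0 h in LS180. In LS180 the library that stands apart was the high one at 4 h and the groups overlapped, while in HCT116 every 4 h library was below every 0 h library. The line difference was −2.56 ± 0.29 (edgeR adjusted p = 7.72e-06), and it ran from −3.29 to −2.16 over the alternatives, all of which kept the call.

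DKK1 is a secreted inhibitor of Wnt signalling. It had 18.5, 10.9 and 11.8 CPM at 4 h against 152, 137 and 133 CPM at 0 h in HCT116, and 4.90, 8.25 and 7.79 CPM at 4 h against 10.9, 14.2 and 14.1 CPM at 0 h in LS180. HCT116 was left at 9.78% ± 2.95 and LS180 at 53.4% ± 13.9. The line difference was −2.44 ± 0.266 (edgeR adjusted p = 5.04e-06).

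Histone genes among the largest negative differences had little left in either line. HIST1H4J, an H4 gene, had 12.8, 6.47 and 5.56 CPM at 4 h against 352, 410 and 422 CPM at 0 h in HCT116. In LS180 it had 51.9, 46.6 and 50.8 CPM at 4 h against 597, 659 and 576 CPM at 0 h. The share left was 2.09% ± 0.994 in HCT116 and 8.15% ± 0.458 in LS180, with a line difference of −1.95 ± 0.361 (edgeR adjusted p = 0.000918). HIST1H2AD, an H2A gene, was left at 0.861% ± 0.0780 in HCT116 and 3.64% ± 0.0878 in LS180, a difference of −2.07 ± 0.297 (edgeR adjusted p = 7.88e-05). HIST2H3C, an H3 gene, was left at 1.15% ± 0.420 in HCT116 and 6.85% ± 2.01 in LS180.

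Of 62 replication-dependent histone genes tested, 28 (45.2%) were called lower and 1 (1.61%) higher. Over all genes tested 1.33% were called lower and 12.3% higher, and under the level rule 1.42% and 19.4%. The median line difference of the 62 was −1.22 [−1.67 to −1.05] beside 0.06 over all genes. The share left reached 86.9% in HCT116 and 76.7% in LS180 among the 62, and the 28 were left at 0.689 to 7.10% in HCT116 and at 1.79 to 15.9% in LS180. By family they were 10 of 16 H2A genes, 6 of 18 H2B genes, 4 of 12 H3 genes and 8 of 12 H4 genes, and none of 4 H1 genes. All 28 met the level rule. The gene called higher, HIST1H4I, was chosen for mention after its values were seen and had 4, 3 and 1 counts at 4 h against 5, 3 and 3 at 0 h in HCT116. Histone copies share reads, so single genes are uncertain. The stem-loop was held by 11 of the 12 called-lower histone genes whose 3′ UTR could be searched. It was also held by 4 genes of the level rule that were not called. Its share among histone genes not called lower was not counted, so the 11 of 12 is not shown to be particular to the called genes.

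**Figure D3:**
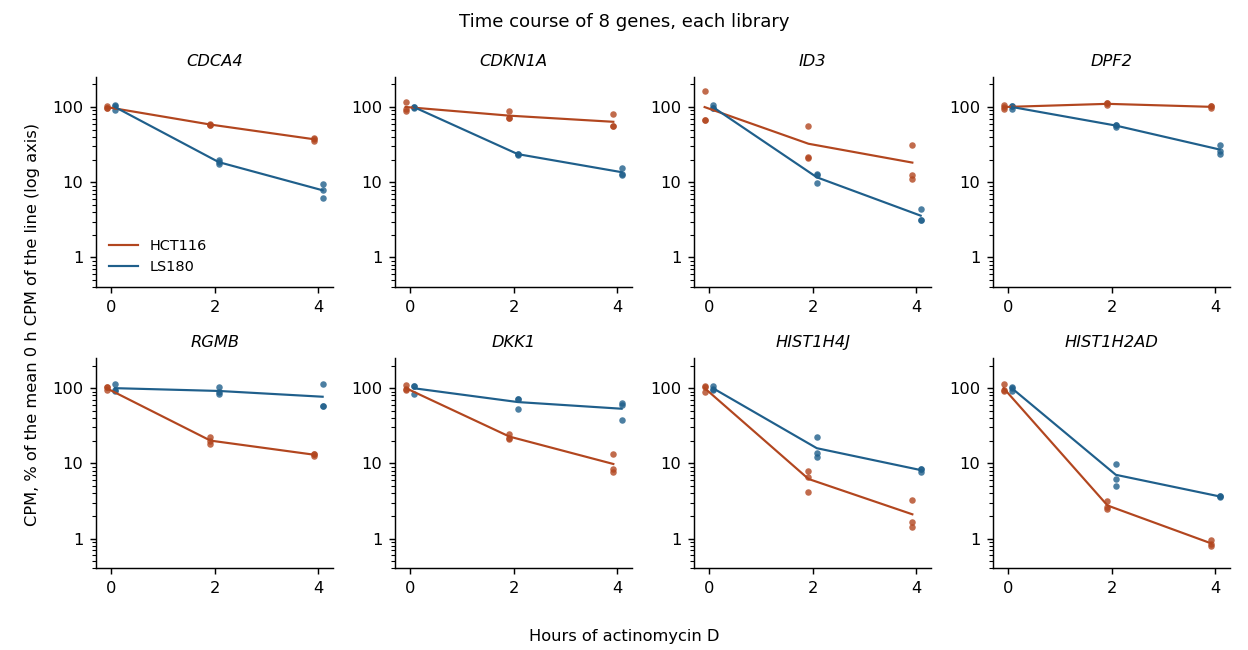
CPM at 0, 2 and 4 h as a percentage of the line's mean 0 h CPM (log axis) for 8 genes, with points for libraries and lines through the means, HCT116 in orange and LS180 in blue. CDCA4, CDKN1A, ID3 and DPF2 run lower in LS180 and RGMB, DKK1, HIST1H4J and HIST1H2AD run lower in HCT116 at 4 h.

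At 2 h, whose fit shares the 0 h libraries, the line difference was 1.66 for CDCA4, 1.70 for CDKN1A, 1.48 for ID3 and 0.96 for DPF2. It was −2.19 for RGMB, −1.53 for DKK1, −1.36 for HIST1H4J and −1.36 for HIST1H2AD. DPF2 averaged 46.1, 50.8 and 46.4 CPM at 0, 2 and 4 h in HCT116 and 22.8, 13 and 6.21 CPM in LS180. DKK1 averaged 140, 31.8 and 13.7 CPM in HCT116 and 13.1, 8.56 and 6.98 CPM in LS180.

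FOXA factors and Staufen proteins are the subject of the series. FOXA1, a pioneer transcription factor of endoderm, had 0.431, 0.277 and 0.142 CPM at 4 h against 3.17, 2.39 and 2.19 CPM at 0 h in HCT116. In LS180 it had 4.54, 3.23 and 3 CPM at 4 h against 40.4, 36.8 and 38.6 CPM at 0 h. FOXA1 fell in both lines, to 11% ± 5.60 in HCT116 and 9.30% ± 2.15 in LS180, and the shares overlapped. Its line difference was 0.25 ± 0.355 (edgeR adjusted p = 0.77), which spans −0.38 to 0.46 over the alternatives. In HCT116 FOXA1 was too low for the level rule, so the lack of a call does not show that the lines changed alike. FOXA3, a paralog, was called, with 19.8% ± 6.49 left in HCT116 and 5.63% ± 0.929 in LS180. Whether FOXA1 and FOXA3 differ from each other was not tested. FOXA3 averaged 0.733 CPM at 4 h and 3.70 CPM at 0 h in HCT116, also too low for the level rule. In LS180 it averaged 0.376 CPM at 4 h and 6.68 CPM at 0 h. The line difference of FOXA3 was 1.81 ± 0.324 (edgeR adjusted p = 0.000662). With LS180 4 h library 1 as the lone library of its group, the edgeR adjusted p was 0.0524. FOXA2 had 0 counts in each HCT116 4 h library and 6, 1 and 1 at 0 h, so no HCT116 change is given, while 4.46% ± 0.393 was left in LS180.

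STAU1, which encodes Staufen1, averaged 95.3 CPM at 4 h and 85.8 CPM at 0 h in HCT116, and 83.6 CPM at 4 h and 72.9 CPM at 0 h in LS180. Its line difference was −0.04 ± 0.0743 (edgeR adjusted p = 0.819), and that of its paralog STAU2 was 0.01 ± 0.0865 (edgeR adjusted p = 1). Over the alternatives the STAU1 difference ran from −0.30 to 0.09 and that of STAU2 from −0.21 to 0.17. STAU1 was called under at least 1 alternative and STAU2 under none. Of 21 Staufen and nonsense-mediated decay factors, all of which met the level rule, 4 (19%) were called higher, beside 19.4% of genes under that rule. None was called lower (up to 2 over the alternatives), and the median was 0.15 [−0.07 to 0.28]. The 4 called higher were SMG8, SMG9, SMG6 and PNRC2. Of these, SMG8 and SMG9 form a complex with the kinase SMG1 and kept their calls under all 26 alternatives. SMG6 lost its call under 15 of them and PNRC2 under 7. SMG8 was left at 33.2% ± 0.484 in HCT116 and 16.5% ± 1.07 in LS180.

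The percentages beside the counts of the lists that follow are to be read against 12.3% of all genes tested called higher and 1.33% lower, and against 19.4% and 1.42% under the level rule. Across genes the LS180 change was 1.24 times the HCT116 change, so genes that fell in both lines tended to a positive difference. Immediate early genes had a median change of −2.50 in HCT116 and −2.93 in LS180, and ERK feedback genes −1.85 and −2.61. Over all genes tested these medians were 0.02 and 0.00. The lists were not set against genes with a like fall, so a share is not shown to be particular to a list. Genes that answer or dampen growth signals were called in both directions. Of 31 immediate early and AP-1 genes 10 (32.3%) were called higher and 4 lower, with a median of 0.41 [0.18 to 0.57]. BTG2, an antiproliferative protein that binds the deadenylase complex, was left at 16.2% ± 3.75 in HCT116 and 4.79% ± 0.374 in LS180. MAFF and FOSL2, basic leucine zipper proteins, and ZFP36L2, which binds AU-rich elements, had line differences of 1.63, 1.51 and 1.49. The 4 called lower were FOSB, EGR1, IER2 and TRIB1, chosen for mention after their values were seen. FOSB rose in both lines, and averaged 1.45 CPM at 4 h and 0.712 CPM at 0 h in HCT116 and 3.18 CPM at 4 h and 0.441 CPM at 0 h in LS180. MYC was all but lost in both, with 3.04% ± 0.597 left in HCT116 and 1.74% ± 0.143 in LS180.

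Of 20 ERK feedback genes 7 (35%) were called higher and 2 lower, with a median of 0.37 [0.04 to 0.50]. DUSP4 and DUSP5, phosphatases of ERK, were left at 30.2% ± 4.72 and 18% ± 3.73 in HCT116 and at 9.58% ± 1.76 and 7.68% ± 1.24 in LS180. DUSP1, a phosphatase of the same family chosen after its values were seen, went the other way, with 11% left in HCT116 and 35.5% in LS180. Its line difference was −1.67 ± 0.217 (edgeR adjusted p = 2.88e-05) from averages of 0.956 CPM at 4 h and 8.66 CPM at 0 h in HCT116. Of 21 NF-kB targets and inhibitors 6 (28.6%) were called higher and 1 lower, with a median of 0.52 [0.21 to 0.66]. NFKBIE, an inhibitor of NF-kB, was left at 40.3% ± 10.1 in HCT116 and 14.8% ± 6.74 in LS180, a call lost with effective length as an offset and with LS180 4 h library 1 as the lone library of its group.

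Of 32 p53 targets, 31 of them under the level rule, 10 (31.2%) were called higher (3 to 16 over the alternatives) and none lower (up to 2), with a median of 0.29 [0.03 to 0.43]. Besides CDKN1A, PPM1D and BTG2 the rule named AEN, an exonuclease, left at 19.4% ± 1.40 in HCT116 and 10.2% ± 2.93 in LS180. Of 17 BCL2 family genes 5 (29.4%) were called higher and none lower, with a median of 0.44 [0.13 to 0.58]. They include the survival genes MCL1, left at 23.1% ± 2.05 in HCT116 and 13.8% ± 1.31 in LS180, and BCL2L1, both called under all 26 alternatives. The death-promoting BBC3 lost its call under 5 of them and PMAIP1 under 4.

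Transcription factor families had positive medians under every alternative. Of 20 KLF and SP factors 8 (40%) were called higher (0 to 11 over the alternatives) and none lower, with a median of 0.41 [0.19 to 0.56]. Of 19 genes of the MYC network and ID family 8 (42.1%) were called higher and none lower (up to 1 over the alternatives), with a median of 0.64 [0.20 to 0.81], and ID1 was left at 16.2% ± 5.52 in HCT116 and 5.40% ± 0.573 in LS180. Of 445 genes with a ZNF symbol 148 (33.3%) were called higher and 10 lower, with a median of 0.48 [0.24 to 0.63]. Their median change was −1.04 in HCT116 and −1.67 in LS180. Of 18 FOXA, HNF, CDX and GATA factors 5 (27.8%) were called higher and none lower, with a median of 0.34 [0.14 to 0.70]. CDX2, the intestinal homeobox factor, was left at 33.4% ± 3.59 in HCT116 and 10.7% ± 3.69 in LS180. Of 18 circadian clock genes 6 (33.3%) were called higher and none lower (up to 1 over the alternatives), with a median of 0.46 [0.10 to 0.61].

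Wnt and BMP pathway genes split. Of 25 Wnt feedback and stem cell genes 6 (24%) were called higher and 1, DKK1, lower, with a median of 0.14 [−0.13 to 0.66] whose sign changes with the processing. AXIN2 and ZNRF3, negative feedback genes of Wnt signalling, were left at 11.7% ± 2.16 and 16.5% ± 2.92 in HCT116 and at 3.98% ± 1.08 and 6.04% ± 2.02 in LS180. AXIN2 averaged 1.17 CPM at 4 h and 10 CPM at 0 h in HCT116, and 7.91 CPM at 4 h and 199 CPM at 0 h in LS180. Of 25 BMP, SMAD and TGF-beta genes 8 (32%) were called higher and 1, RGMB, lower, with a median of 0.09 [−0.09 to 0.27]. BMP4, a ligand, was left at 12.6% ± 0.222 in HCT116 and 6.2% ± 0.803 in LS180.

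Of 31 mitotic and G2 genes, all under the level rule, 12 (38.7%) were called higher (2 to 16 over the alternatives) and none lower (up to 2, as without LS180 4 h library 1), with a median of 0.21 [0.01 to 0.36]. AURKA, a mitotic kinase, had 61.3, 71.0 and 71.8 CPM at 4 h against 89.2, 115 and 111 CPM at 0 h in HCT116, and 23.7, 22.4 and 20.5 CPM at 4 h against 92.1, 85.7 and 91.7 CPM at 0 h in LS180. Its 4 h libraries were below those of 0 h in both lines, by 0.63 on the log2 scale in HCT116 and 2.01 in LS180, and the difference was 1.39 ± 0.133 (edgeR adjusted p = 1.22e-06). Of 32 S phase genes 9 (28.1%) were called higher and none lower, with a median of 0.21 [0.01 to 0.36]. E2F7, a repressor of the E2F family, was left at 67.2% ± 3.74 in HCT116 and 25.3% ± 3.72 in LS180. Of 20 cyclins and CDK inhibitors 8 (40%) were called higher and none lower (up to 2 over the alternatives), with a median of 0.22 [0.02 to 0.37], among them CCNE1 and CCNE2 at 0.97 and 0.91.

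Stress genes and decay factors had medians near that of all genes. Of 25 polyubiquitin and heat shock genes 5 (20%) were called higher and none lower (up to 3 over the alternatives), with a median of 0.02 [−0.21 to 0.17]. UBB, a polyubiquitin gene, had 1330, 1350 and 1280 CPM at 4 h against 1180, 1050 and 1120 CPM at 0 h in HCT116, and 346, 331 and 363 CPM at 4 h against 740, 764 and 751 CPM at 0 h in LS180. Its 4 h libraries were above those of 0 h in HCT116 and below them in LS180, a line difference of 1.36 ± 0.0832 (edgeR adjusted p = 1.17e-08). Of 43 genes of deadenylation, decapping and the exosome, all under the level rule, 13 (30.2%) were called higher (4 to 16 over the alternatives) and none lower (up to 3), with a median of 0.18 [−0.01 to 0.32]. TOB1 and TOB2, which like BTG2 bind the deadenylase complex, were left at 30.7% ± 4.21 and 39.0% ± 3.27 in HCT116 and at 11.2% ± 2.88 and 20.7% ± 3.17 in LS180. Of 27 genes for proteins that bind AU-rich or GU-rich elements 3 were called higher and 1 lower, with a median of −0.04 [−0.24 to 0.13].

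**Figure D4:**
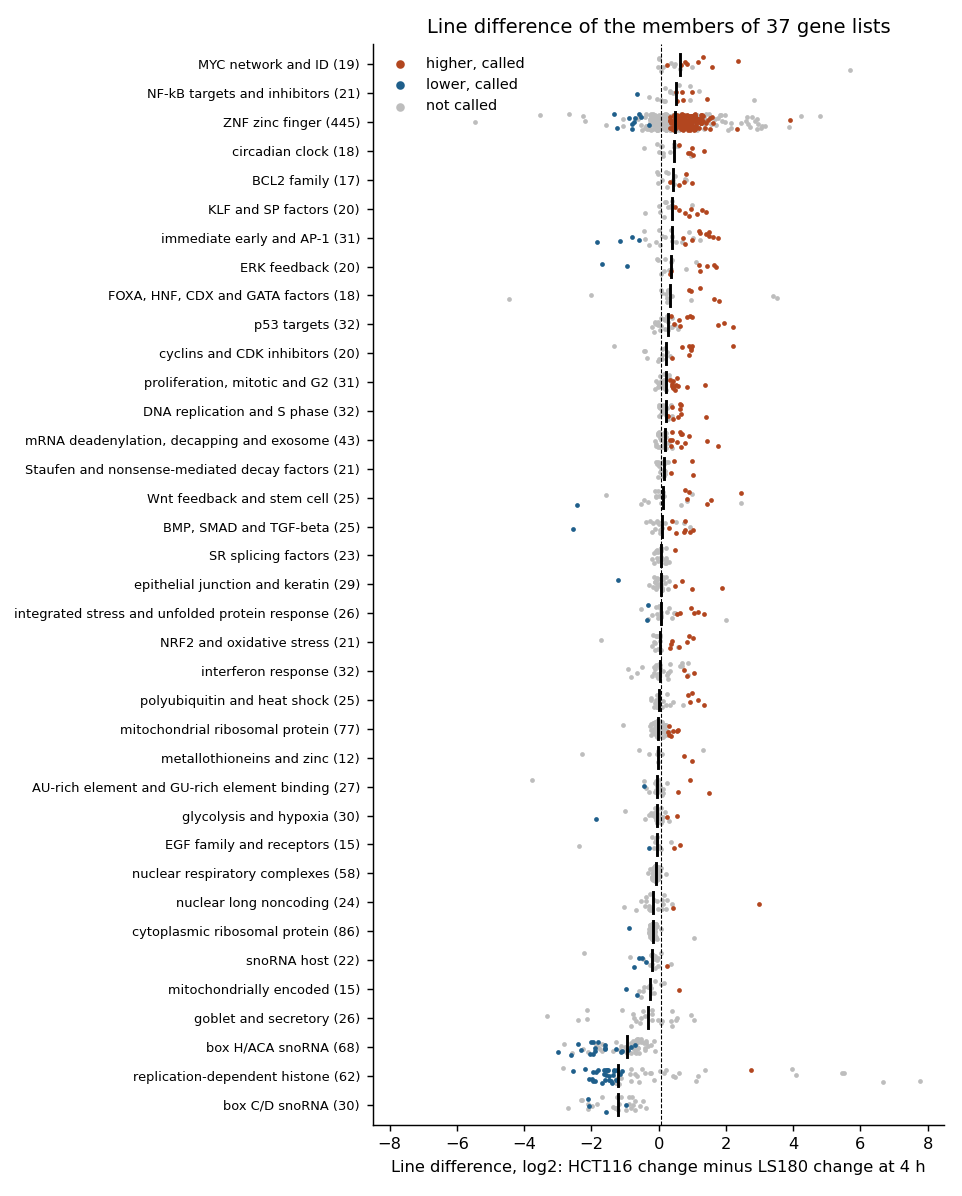
Each point is the line difference (log2, HCT116 change minus LS180 change at 4 h) of a tested member of 37 gene lists, with the number tested in brackets, black ticks for list medians and a dashed line for the median of all genes, 0.06. Members called higher are orange and those called lower are blue, and the histone and snoRNA lists at the foot have medians from −1.22 to −0.94.

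Transcripts of respiratory complexes and ribosomal proteins had medians between −0.17 and −0.01, beside 0.06 over all genes. None of 58 genes of the nuclear-encoded respiratory complexes was called by edgeR, with a median of −0.08 [−0.34 to 0.08]. At an unadjusted p under 0.05 there were 1 higher and 1 lower, and DESeq2 called 3 lower. Without the LS180 4 h library 1 there were 47 lower, or 15 lower and 1 higher with the scaling factors kept. Of 86 cytoplasmic ribosomal protein genes 1 was called lower, with a median of −0.17 [−0.44 to 0.00]. The alternative that scales libraries to these same genes holds their median near 0 by design. The gene called, RPS17L at −0.88, lost its call with effective length as an offset. Without the LS180 4 h library 1 there were 84 lower, or 62 with the scaling factors kept. Of 77 mitochondrial ribosomal protein genes 7 were called higher and none lower, with a median of −0.01 [−0.24 to 0.14]. Without that library 37 were lower and 4 higher, or 7 lower and 10 higher with the scaling factors kept. None of 26 goblet and secretory genes was called by edgeR or DESeq2, and 2 were higher at an unadjusted p under 0.05, with a median of −0.31 [−0.61 to 0.01]. Up to 2 were called higher over the alternatives. Only 4 of the 26 met the level rule, so for the others the absence of a call says little. TFF3, a goblet cell peptide, had 0 or 1 counts in HCT116 libraries against 4088 to 4571 in LS180 at 4 h, so that its change in HCT116 could not be measured.

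Of 22 snoRNA host genes 4 (18.2%) were called lower and 1 higher, with a median of −0.19 [−0.44 to −0.02]. Those called lower were GAS5, SNHG1, SNHG5 and SNHG12, and the one called higher was NOP56. Without the LS180 4 h library 1 there were 15 lower, or 8 lower and 2 higher with the scaling factors kept. SNHG5 had 30.4, 33.9 and 33.8 CPM at 4 h against 38.0, 40.9 and 38.6 CPM at 0 h in HCT116, and 51, 57.1 and 60.4 CPM at 4 h against 43.5, 44.9 and 46.9 CPM at 0 h in LS180. It was therefore below 0 h in HCT116 and above it in LS180, a line difference of −0.58 ± 0.0924 (edgeR adjusted p = 0.000228).

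Of 68 box H/ACA snoRNAs tested 20 (29.4%) were called lower and none higher, with a median of −0.94 [−1.39 to −0.25]. Of these 68, 20 met the level rule, and 7 of those were called lower. Of 30 box C/D snoRNAs 4 (13.3%) were called lower, with a median of −1.22 [−1.64 to −0.54]. The level rule was met by 8 of these 30, and none of the 8 was called. Without the LS180 4 h library 1 there were 52 and 17 lower, or 46 and 13 with the scaling factors kept. Under at least 1 alternative none was called in either list. SNORA23 was left at 49.9, 37 and 47.4% in the HCT116 libraries and at 84.9, 215 and 224% in the LS180 libraries, where libraries 2 and 3 were the high ones. Its call was lost without LS180 4 h library 3 and with library 1 alone. Of 35 snRNA genes, many of them copies that share reads, 13 were called lower. Short noncoding RNAs took 16.6 to 16.9% of the counts in HCT116 at 4 h and 17.6 to 18.6% at 0 h, against 17.2 to 25.7% in LS180 at 4 h and 17.8 to 21.5% at 0 h. With short noncoding RNAs left out of the fit there were 2288 genes higher and 178 lower, and the 2288 include all 2129 called higher with them.

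The remaining lists had medians between −0.25 and 0.07. Of 26 genes of the integrated stress and unfolded protein responses 6 (23.1%) were called higher and 2 lower, with a median of 0.07 [−0.11 to 0.21], and of 21 NRF2 and oxidative stress genes 7 (33.3%) were called higher and none lower (up to 5 over the alternatives), with a median of 0.04 [−0.17 to 0.19]. Of 30 glycolysis and hypoxia genes 2 were higher and 1 lower, with a median of −0.05 [−0.26 to 0.11], and of 32 interferon response genes 3 were higher, with a median of 0.04 [−0.15 to 0.19]. Of 29 epithelial junction and keratin genes 4 were higher and 1 lower, with a median of 0.07 [−0.15 to 0.21]. Among 15 EGF family genes and receptors 2 were higher and 1 lower, with a median of −0.06 [−0.25 to 0.10]. The counts were 1 higher of 23 SR splicing factors at a median of 0.07 [−0.13 to 0.22], 2 higher of 12 metallothionein and zinc genes at −0.02 [−0.31 to 0.18], and 2 higher of 24 nuclear long noncoding RNAs at −0.17 [−0.35 to 0.04]. Of 15 mitochondrially encoded genes 1 was higher and 2 lower, with a median of −0.25 [−0.62 to −0.09].

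Some gene features, which the comparison did not use, are described for genes of the level rule with an annotated transcript, with no test. Genes called higher had a median of 8 exons and a coding GC content of 53.2%, against 10 exons and 50.5% in 7184 genes not called. An AU-rich heptamer was present in 38.3% of the 3′ UTRs of genes called higher and 52.3% of those called lower, against 32.1% of those not called. The 3′ UTRs differed in length too, with a median of 1290 bases in genes called higher and 1814 in those called lower, against 1120 in those not called. The median density of ATTTA per kb was 1.66 in genes called higher and 2.29 in those called lower, against 1.74 in those not called. Leaving out histone genes, 39.5% of 129 genes with 1 exon were called higher, as were 30.5% of 1406 with 2 to 4 exons, 19.7% of 2941 with 5 to 9 exons and 16.2% of 4569 with 10 or more. Genes with 1 exon had a median change of −0.76 in HCT116 and −1.21 in LS180. Across genes the line difference had a Spearman's rho of 0.18 with coding GC content, 0.16 with coding length, −0.05 with exon number and 0.02 with 3′ UTR length, as descriptions.

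**Figure D5:**
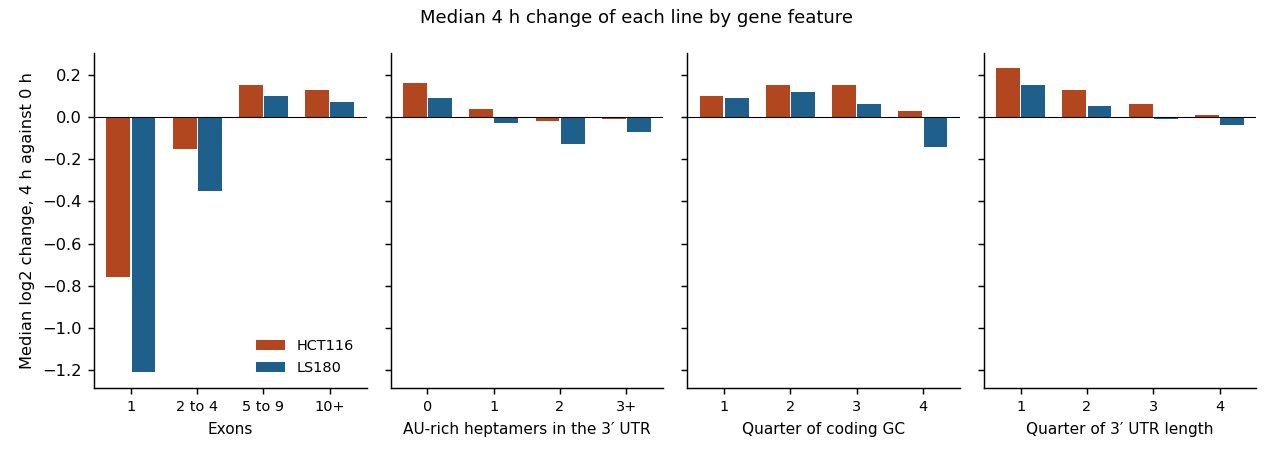
Bars give the median log2 change of 4 h against 0 h in HCT116 (orange) and LS180 (blue) for genes of the level rule, by exon number without histone genes, by the number of AU-rich heptamers, and by 4 bins of equal size, low to high, of coding GC content and of 3′ UTR length. The lowest medians are those of genes with 1 exon, −0.76 in HCT116 and −1.21 in LS180.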

How the data were processed

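The libraries measure total RNA, per the labels. The submitters' processing notes name cutadapt, STAR 2.7, RSEM 1.3.1 and the build hg19. Annotation release and strand setting: not given in the sources used here. The authors' deposited tables held expected counts per gene, which divide reads that match several genes. They also held an effective length, another quantity used as an offset in 1 alternative, and TPM, which the authors scaled per library and which was not tested.

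Expected counts were rounded and tested with edgeR 4.0.16 in R 4.3.3 (TMM factors, a two-sided glmQLFTest after glmQLFit, and filterByExpr with the 6 groups). The fit took the 18 actinomycin D libraries in 6 groups, with 12 residual degrees of freedom and a common dispersion of 0.00666, and p-values were adjusted by Benjamini-Hochberg over 17256 genes. The 4 siRNA libraries were not used. SE is the absolute log2 change divided by the square root of F. The share left is the CPM of each 4 h library over the mean 0 h CPM of its line.

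The comparison, the 40 gene lists and the tests were chosen with earlier results of these data known. Named genes are FOXA1, FOXA2, FOXA3, STAU1 and STAU2, the 12 largest called differences in each direction under the level rule without pseudogenes, clones and short noncoding RNAs, up to 4 called members per list with the smallest adjusted p, and tested marker genes, and values are given for some of them.

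Pairing by replicate number was judged by a correlation over 0.1 for every number, which HCT116 met and LS180 did not. Deviations at 4 h and 0 h correlated at 0.48, 0.23 and 0.23 for the 3 numbers of HCT116 and at 0.23, −0.07 and 0.24 for those of LS180. Between the lines they correlated at 0.19, 0.12 and 0.23 at 4 h and at −0.02, −0.12 and −0.13 at 0 h. The 4 h values between the lines pass the same rule, so the rule does not by itself show pairing. The main fit used no replicate block. 3′ UTRs, exons and coordinates came from GENCODE 29 (GRCh38), matched on the identifier. The fit was tested on simulated data. Alternatives were RLE factors, DESeq2 1.42.0, other filters and scalings, replicate blocks and left-out libraries, of which 3 were added after the data were seen.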

Additional observations from a re-analysis of the deposited data

Results flagged for a closer look

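The comparison is itself a test of whether the lines differ, so the 2129 genes with a higher and the 230 with a lower relative level in HCT116 are all differences between groups. Among the named genes, 8 were called in opposite directions in the lines, which is a stricter form of it. The same count over all genes tested was not made, so the 8 have no share to be read against. UBB rose in HCT116 and fell in LS180, with a line difference of 1.36, as did SMG9 at 1.00, CTNND1 (p120 catenin) at 0.99, the splicing regulator ESRP1 at 0.71, the replication factor subunit RFC4 at 0.68, the phosphatase CDC25B at 0.44 and the autophagy receptor SQSTM1 at 0.33. SNHG5 fell in HCT116 and rose in LS180, at −0.58. Of the 26 alternatives, the call of the line difference was lost under 6 for SQSTM1, 3 for CDC25B and 1 each for RFC4 and ESRP1. UBB, SMG9, CTNND1 and SNHG5 kept it under all of them. Rises and falls are relative to the transcripts that remained. Scaling to ribosomal protein genes moved the median of all genes by −0.39 in HCT116 and −0.54 in LS180, more than the HCT116 change of 0.24 for UBB, so that the direction within a line depends on the scaling. Groups of 3 libraries were not searched for single outlying values.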

How the results depend on the processing

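Most of the 126 named genes called were named for being called, in the same libraries that the alternatives refit. A kept direction is therefore no separate support. None of the 126 had its direction reversed under the 26 alternatives. Of them, 68 were called under all of these, and 58 were lost under 1 or more, 19 of them only with the LS180 4 h library 1 as the lone library of its group. Genes called lower, 230 in the report, numbered 451 with RLE size factors, 662 with DESeq2, 128 with total library size, 72 with ribosomal protein scaling, 984 with no filter on low counts and 1757 when genes needed 1 CPM or more throughout a group. Genes called higher, 2129 in the report, numbered 1372 with no filter and 1253 with the 1 CPM filter. At 2-fold or more, 57 were lower with ribosomal protein scaling and 249 with no filter, and 240 were higher with the 1 CPM filter. Within lines, total library size gave 2274 genes rising in HCT116 and 1893 in LS180. Ribosomal protein scaling gave 115 rising and 7321 falling in HCT116, and 131 rising and 10699 falling in LS180.

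Leaving out each library in turn gave 1051 to 2101 genes higher and 136 to 2536 lower, and at 2-fold 221 to 483 higher and 70 to 266 lower. Without 1 HCT116 4 h library the higher count was 1143, 1051 or 1079 and the lower count 972, 673 or 830. For the LS180 4 h library 1, leaving it out with scaling factors kept gave 677 lower and 675 higher by 2-fold, and its use as the lone library of its group, which is then assumed to vary like the other groups, gave 524 higher, 466 lower and 120 higher by 2-fold. Of the 2129 genes, 1666 were also called higher without the LS180 4 h library 1. Without HCT116 4 h library 1, 2 or 3 it was 1138, 1042 or 1070 of them.

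A replicate block within each line gave 2506 higher and 310 lower, and a common replicate block 2226 and 251, both within 1.5 times. The cause was not tested for any of these. The snoRNA lists have no value without short noncoding RNAs, nor the endothelial markers under the 1 CPM filter, since no member was left. Depth leaves genes such as FOXA2 and TFF3 unmeasured in HCT116, where they had few or no counts.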
